A study of Mus musculus with 10 samples.

Results

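The genes described here are Atf4, which encodes activating transcription factor 4, and 9 genes that it induces when amino acids run short or mitochondria are stressed: Atf5, Atf3, Ddit3, Trib3, Vldlr, Psat1, Asns, Chac1 and Sesn2. They were taken by symbol from a table of 47702 genes, and all 10 had a mean level of at least 0.5 FPKM (fragments scaled to transcript length and library total) and so were tested. RNA came from livers of female mice with a whole-body Etnppl knockout (KO, 5 libraries) and of wild-type females (WT, 5 libraries), all on chow for 20 weeks. The labels give no age at harvest, strain, targeted exon or number of lines. Etnppl encodes the phospho-lyase that breaks down phosphoethanolamine. No label states that a library is 1 animal, so the p-values may reflect only technical spread between libraries.

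ATF4 is the main transcription factor of the integrated stress response. Kinases that sense amino acid shortage, misfolded protein in the endoplasmic reticulum, viral RNA or mitochondrial faults phosphorylate the initiation factor eIF2, which slows protein synthesis in general while raising translation of the Atf4 message. ATF4 then binds, with partners of the C/EBP family, to composite C/EBP-ATF elements near genes for amino acid synthesis, uptake and tRNA charging. Because this control acts largely on translation and on protein stability, the Atf4 mRNA is a limited readout of ATF4 protein, and neither protein nor eIF2 phosphorylation was measured here.

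Of the 10 genes, 4 were higher in KO at an adjusted p under 0.05 from limma, a linear model fitted to all 12247 tested genes, and none was lower (0 lower at an unadjusted p under 0.05). Among all tested genes 3.98% were called higher and 4.56% lower, 8.54% in all. The 10 genes were chosen with earlier results of these data known. Neither their count nor their median is therefore an independent comparison with all genes. The 4 were Trib3, Psat1, Vldlr and Atf5, with mean levels 2.44, 2.60, 1.74 and 1.31 times those of WT. Psat1 reached the 0.5 FPKM filter only through its KO level, so that a higher level in KO decided that it was tested; of the other 9 genes 3 were called, with a median of 0.30. The other 6, Atf4, Ddit3, Asns, Sesn2, Chac1 and Atf3, did not pass. The median log2 difference over the 10 genes was 0.34, beside -0.02 over all tested genes. Only Trib3 and Atf5 had every KO library above every WT library, which was so for 4.08% of all tested genes; none lay wholly below WT, against 4.78% of all.

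**Figure D1:**
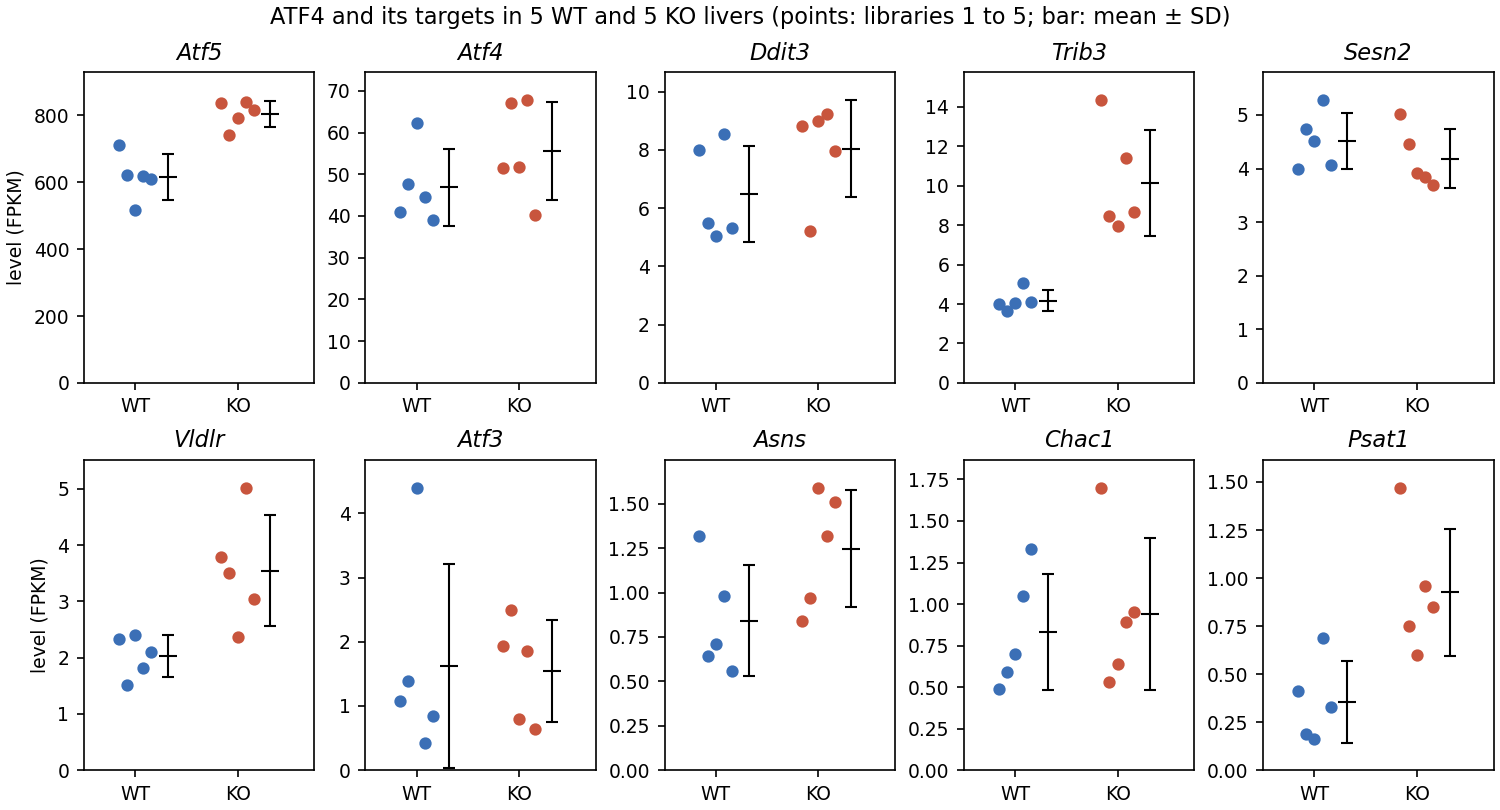
Level of each gene in FPKM (linear axes from 0, one scale per gene) in the 5 WT and 5 KO libraries, with the mean and SD beside each group. Trib3 and Atf5 show no overlap between genotypes, Vldlr and Psat1 overlap in 1 KO library each, and the other 6 genes are intermixed.

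Short stretches of the promoters show which of these genes have letters matching the core of the C/EBP-ATF element near the start of transcription. Binding of ATF4 was not measured. All 10 genes had windows in the RefSeq promoter table (GRCm38.p6, the assembly of mm10), 13 windows in all, since Atf5, Vldlr and Psat1 have 2 starts each; a window runs from 250 bases before the start to 50 after it. The core letters TGATGNAA, searched on both strands, were found in 5 of the 13 windows, 1 each of Asns, Chac1, Atf3, Vldlr and Trib3, and in 1304 of 32851 windows of all genes (3.97%). A longer motif, TGNTGCAAT, chosen after seeing the windows, was found in Trib3 and Psat1 and in 221 of all windows (0.673%). A run of letters can match both motifs, but none of the runs here did. Atf4, Atf5, Ddit3 and Sesn2 held neither, which says only that these letters are not in the windows. The sites are printed 5′ to 3′ on the strand of the gene, with the matching letters in capitals and positions counted from 1 at the RefSeq start, negative before it.
Asns, chr6:7693214-7693243, minus strand, motif at -23 to -16: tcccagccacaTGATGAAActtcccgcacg
Chac1, chr2:119351038-119351067, plus strand, motif at -193 to -186: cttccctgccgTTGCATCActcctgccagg
Atf3, chr1:191183425-191183454, minus strand, motif at -110 to -103: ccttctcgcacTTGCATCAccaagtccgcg
Vldlr, chr19:27216809-27216838, plus strand, motif at -200 to -193: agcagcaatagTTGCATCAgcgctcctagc
Trib3, chr2:152344028-152344057, minus strand, motif at 15 to 22: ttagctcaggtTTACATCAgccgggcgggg
Trib3, chr2:152344075-152344103, minus strand, motif at -33 to -25: gggtcacagaTGGTGCAATcccgggccgc
Psat1, chr19:15925177-15925205, minus strand, motif at -136 to -128: cgcgggtggcTGGTGCAATcccctgctct
The match in Asns reads in the direction of the gene, as do both matches to the longer motif, and the other 4 lie on the opposite strand. Of the 4 genes that rose, Trib3 and Vldlr have a TGATGNAA match and Atf5 and Psat1 have none. Asns, Chac1 and Atf3 have one and did not pass the test. The TGNTGCAAT match of Psat1 is left out of this comparison, because that motif was chosen with its window seen.

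The label of each library was checked first against the targeted gene. Etnppl was at 43.3 to 108.4 FPKM in WT and 17.7 to 26.4 FPKM in KO, leaving 33.7% of the WT mean in KO (log2 difference -1.49, SE 0.23, limma adjusted p = 0.00504; exact two-sided permutation test p = 0.00794, n = 5 and 5, the smallest this design allows). Read totals were not analysed here. The smallest steps in the values of 40 low genes gave a relative depth that ran from 1.0 to 1.1 in WT and from 0.897 to 1.06 in KO. Its mean was 1.05 in WT and 0.954 in KO (exact two-sided permutation test p = 0.0317, n = 5 and 5). On the first principal component (27.4% of the variance) WT 3, at 0.602, lay between the other WT libraries (8.95 to 22.01) and the KO libraries (-17.9 to -8.35). Without WT 3, 3 of the 10 genes were called, and Psat1 was not (limma adjusted p = 0.0669). Hepatocyte markers were present throughout: the 10 genes summed to 65940 to 71410 FPKM in WT and 72150 to 77730 FPKM in KO, without overlap, and 1 of them, Cps1, was called, higher in KO (0.58). Their log2 differences were not all of 1 sign, with 7 positive and 3 negative. Of the 3 with an unadjusted p under 0.05, 1 was lower. Of 10 Kupffer cell markers 4 were lower in KO (Clec4f -0.51, C1qa -0.46, Vsig4 -0.43 and Csf1r -0.37), and the sum of the 10 was 283.6 to 329.4 FPKM in WT against 198.5 to 285.9 in KO. Of the 10 Kupffer markers, 9 had a negative and 1 a positive log2 difference. An unadjusted p under 0.05 was seen for 8, of which 7 were lower. The bile duct and stellate lists had 1 called gene each, both lower (Sox9 -0.56 and Reln -0.26). None of the tested endothelial (10), lymphocyte (7) or neutrophil (4) markers was called by limma, and 3, 2 and 0 of them had an unadjusted p under 0.05. No marker was at 0 in all libraries. The part of cell makeup and of depth in the results below was not tested, and in bulk liver a change in cell numbers cannot be told apart from a change in RNA per cell.

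Among the transcription factors, Atf5 rose and Atf4, Ddit3 and Atf3 did not pass. Atf4 (ENSMUSG00000042406, chr15:80255184-80257541, plus strand) was at 40.85, 47.65, 62.27, 44.47 and 39.02 FPKM in WT 1 to WT 5 and at 51.38, 67.02, 51.7, 67.67 and 40.21 FPKM in KO 1 to KO 5. KO 2 and KO 4 were the highest 2 libraries and WT 5 and KO 5 the lowest 2, and WT 3 lay among the KO values, so the groups overlapped. The means were 46.9 ± 9.24 and 55.6 ± 11.7 FPKM (SD, n = 5 each). The log2 difference was 0.24, with a 95% interval from -0.11 to 0.59 (limma adjusted p = 0.391).

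Atf5 (ENSMUSG00000038539, chr7:44812256-44816658, minus strand), a paralogue of ATF4 that is itself translated under stress and drives mitochondrial chaperone genes, was by far the most abundant of the 10. It was at 711.63, 621.79, 517.2, 620.3 and 608.6 FPKM in WT 1 to WT 5 and at 836.49, 742.22, 791.31, 839.26 and 814.99 FPKM in KO 1 to KO 5. Every KO library lay above WT 1, the highest WT library, and the KO libraries were the more alike, with a coefficient of variation of 4.97% against 11.2% in WT. The mean was 616 ± 68.9 FPKM in WT and 805 ± 40.0 FPKM in KO (SD, n = 5 for both). On the log2 scale the gene rose by 0.39 (SE 0.08, 95% interval 0.23 to 0.56, limma adjusted p = 0.0111). Its level exceeded that of 99.1% of tested genes. The 5′ end of Atf5 overlaps Nup62 by 571 bases and Il4i1 by 272 bases on the other strand. Both were far lower, at 3.74 to 7.38 and 0.40 to 1.29 FPKM.

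Ddit3 (ENSMUSG00000025408, chr10:127290774-127296288, plus strand), which encodes CHOP, the factor linked to cell death under lasting stress, was at 7.99, 5.50, 5.06, 8.56 and 5.31 FPKM in WT and 8.84, 5.22, 8.98, 9.24 and 7.96 FPKM in KO, libraries 1 to 5 in turn. In KO, 4 libraries lay near 8 to 9 FPKM and KO 2 was as low as the lower WT libraries. The log2 difference was 0.30 (95% interval -0.10 to 0.69, limma adjusted p = 0.339). The 3′ end of Ddit3 overlaps that of Mars, the methionyl-tRNA synthetase gene, by 68 bases on the other strand, and without a stated strand setting such reads cannot be assigned.

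Atf3 (ENSMUSG00000026628, chr1:191170296-191218039, minus strand), a stress-induced repressor that is also an immediate early gene, was at 1.07, 1.39, 4.40, 0.43 and 0.85 FPKM in WT and 1.93, 2.49, 0.80, 1.85 and 0.64 FPKM in KO. WT 3 was above all others. The log2 difference was 0.09 and its 95% interval, from -0.86 to 1.05, was the widest of the 10 (limma adjusted p = 0.919). Its sign turned negative without WT 4 (-0.14), WT 5 (-0.01) or KO 2 (-0.07). Immediate early genes, a sign of how tissue was handled as well as of signalling, summed to 115.2 to 300.5 FPKM in WT and 101.8 to 162.9 in KO over 14 genes, and none of the 12 tested was called by limma (3 had an unadjusted p under 0.05, all lower).

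Among the stress effectors, Trib3 rose and Sesn2 and Chac1 did not pass. Trib3 (ENSMUSG00000032715, chr2:152337422-152344032, minus strand) encodes a pseudokinase that inhibits AKT and also restrains ATF4 and CHOP. It was at 3.99, 3.67, 4.03, 5.07 and 4.09 FPKM in WT 1 to WT 5 and at 14.33, 8.48, 7.94, 11.42 and 8.65 FPKM in KO 1 to KO 5. The WT libraries lay close together, every KO library was above all of them, and KO 1 and KO 4 were the highest. The mean was 4.17 ± 0.529 FPKM in WT and 10.2 ± 2.69 FPKM in KO (SD, n = 5 for both). On the log2 scale the gene rose by 1.16 (SE 0.15, 95% interval 0.84 to 1.49, limma adjusted p = 0.0016). By p it ranked 42nd of all tested genes. Its adjusted p stayed at or below 0.00674 whichever library was left out. Its paralogues Trib1 and Trib2 did not pass, with log2 differences of -0.01 and -0.19. The 250 bases before the Trib3 start are shown because this gene had the smallest p of the 10, with the TGNTGCAAT match in capitals.
Trib3, chr2:152344061-152344310, minus strand: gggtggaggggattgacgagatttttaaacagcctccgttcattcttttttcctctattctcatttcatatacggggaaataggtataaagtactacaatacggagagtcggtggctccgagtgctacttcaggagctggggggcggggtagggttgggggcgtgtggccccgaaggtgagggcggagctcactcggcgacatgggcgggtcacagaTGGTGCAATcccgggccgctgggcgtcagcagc
The stretch ends 1 base before the RefSeq start; the TGATGNAA match of Trib3 lies beyond it, at 15 to 22.

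Sesn2 (ENSMUSG00000028893, chr4:132492032-132510501, minus strand), the leucine sensor sestrin 2, which holds back mTORC1, had the only negative log2 difference of the 10. It was at 3.99, 4.74, 4.51, 5.27 and 4.06 FPKM in WT and 5.02, 4.46, 3.91, 3.84 and 3.69 FPKM in KO. KO 3, KO 4 and KO 5 were below every WT library, and KO 1 was above 4 of the 5. The log2 difference was -0.10 (95% interval -0.32 to 0.12, limma adjusted p = 0.589). Its paralogues were lower too without passing, Sesn1 by -0.31 (adjusted p = 0.184) and Sesn3 by -0.27 (limma adjusted p = 0.0731).

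Chac1 (ENSMUSG00000027313, chr2:119351229-119354381, plus strand), an enzyme that degrades glutathione, was at 0.49, 0.59, 0.70, 1.05 and 1.33 FPKM in WT and 1.70, 0.53, 0.64, 0.89 and 0.95 FPKM in KO. KO 1 was the highest library, but WT 5 and WT 4 came next, so the groups were intermixed. The log2 difference was 0.10 (95% interval -0.38 to 0.58, limma adjusted p = 0.826), and without KO 1 it was -0.06.

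Of the 2 amino acid enzymes among the 10, Psat1 rose and Asns did not pass. Psat1 (ENSMUSG00000024640, chr19:15904678-15947337, minus strand), the transaminase of serine synthesis, was the lowest gene of the 10. It was at 0.41, 0.19, 0.16, 0.69 and 0.33 FPKM in WT 1 to WT 5 and at 1.47, 0.75, 0.60, 0.96 and 0.85 FPKM in KO 1 to KO 5. In KO, 4 libraries lay above every WT library, and KO 3 lay below WT 4. The mean was 0.356 ± 0.213 FPKM in WT and 0.926 ± 0.332 FPKM in KO (SD, n = 5 for both). On the log2 scale the gene rose by 0.74 (SE 0.19, 95% interval 0.32 to 1.16, limma adjusted p = 0.0366). That difference is on the scale of log2(FPKM + 0.5), which understates change in a gene this low, and it was 1.23 with 0.1 FPKM added. The WT mean was under the 0.5 FPKM filter and the KO mean above it, so the gene was tested only because of its KO level, and with no filter it was not called (limma adjusted p = 0.0672). The call was also lost without any one of 8 libraries, all but WT 4 and KO 3 (highest adjusted p 0.0751). The 250 bases before the RefSeq start with the TGNTGCAAT match are shown because that run of capitals is the same as in Trib3. The motif was chosen after seeing the windows, so the shared match follows from that choice.
Psat1, chr19:15925060-15925309, minus strand: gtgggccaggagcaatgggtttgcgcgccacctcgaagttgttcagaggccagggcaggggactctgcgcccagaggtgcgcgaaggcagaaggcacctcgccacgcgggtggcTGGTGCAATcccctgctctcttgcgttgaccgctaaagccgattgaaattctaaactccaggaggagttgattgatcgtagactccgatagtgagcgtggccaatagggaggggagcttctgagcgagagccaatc
The matching letters lie at -136 to -128 in Psat1 and at -33 to -25 in Trib3.

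Asns (ENSMUSG00000029752, chr6:7675169-7693254, minus strand), asparagine synthetase, in which the amino acid response element was characterised, was at 1.32, 0.64, 0.71, 0.98 and 0.56 FPKM in WT and 0.84, 0.97, 1.59, 1.32 and 1.51 FPKM in KO. The 2 highest libraries were KO 3 and KO 5, WT 1 equalled KO 4, and KO 1 was below WT 4. The mean was 0.842 ± 0.31 in WT and 1.25 ± 0.33 FPKM in KO (SD, n = 5 each). The log2 difference of 0.39 matched that of Atf5 in size, but its spread was wider (SE 0.17, 95% interval 0.0048 to 0.77) and the limma adjusted p was 0.198.

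Vldlr (ENSMUSG00000024924, chr19:27216484-27254231, plus strand), the receptor for very low density lipoprotein, which ATF4 induces in stressed liver, was at 2.33, 1.52, 2.41, 1.81 and 2.10 FPKM in WT 1 to WT 5 and at 3.79, 3.51, 2.36, 5.02 and 3.05 FPKM in KO 1 to KO 5. Only KO 3 fell within the WT range, just below WT 3, and KO 4 was the highest. The mean was 2.03 ± 0.37 FPKM in WT and 3.55 ± 0.986 FPKM in KO (SD, n = 5 for both). On the log2 scale the gene rose by 0.65 (SE 0.17, 95% interval 0.29 to 1.02, limma adjusted p = 0.0343). The call was lost without any one of 7 libraries, all but WT 1, WT 3 and KO 3 (highest adjusted p 0.0703), and with no filter (0.0671). Lrp1, another receptor of its family, fell by 0.33 on the log2 scale (limma adjusted p = 0.0298, and up to 0.0642 without WT 1, WT 3, KO 2, KO 3, KO 4 or KO 5). In all, 1 of 7 tested paralogues of the 10 genes was called, lower, and the median of the 7 was -0.27.

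**Figure D2:**
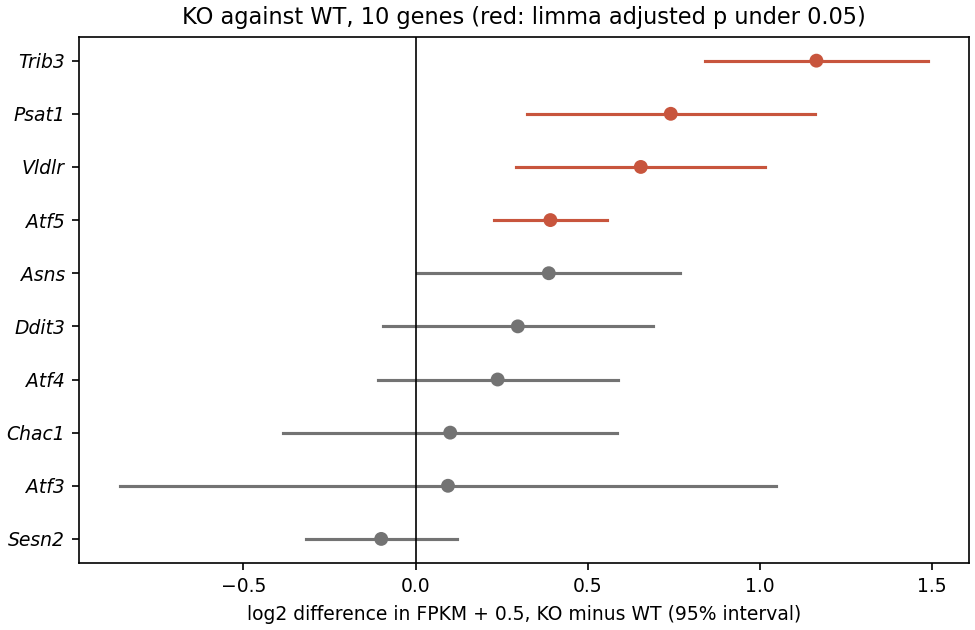
Log2 difference, KO minus WT, of each of the 10 genes (points) with its 95% interval from limma (lines); red marks an adjusted p under 0.05. Trib3 stands highest at 1.16, and the intervals of Ddit3, Atf4, Chac1, Atf3 and Sesn2 cross 0.

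The 4 genes that rose ranked the KO libraries alike at the top. For each of Trib3, Psat1, Vldlr and Atf5 the 2 highest of the 10 libraries were KO 1 and KO 4. For Trib3, Psat1 and Vldlr KO 3 was the lowest of the KO libraries. These genes were called for being higher in KO, so KO libraries at the top follow from the call. KO 1 and KO 4 were also the 2 highest for Iars, Gars and Eif2s2, named below, while for Eif2b3 they were KO 1 and KO 5. The order is thus not particular to the 4, and its share among all genes was not counted. Atf4 itself was highest in KO 4 and KO 2 and ranked 5th in KO 1. Asns followed another order, with KO 3 highest and KO 1 7th of 10. KO 4, KO 1 and KO 5 had the lowest relative depths, 0.897, 0.909 and 0.909. KO 5 ranked 3rd of the 10 libraries for Trib3, Psat1 and Atf5 and 4th for Vldlr. The part of depth was not tested. Likeness to Trib3, the gene of smallest p among the 10, was measured over all 10 libraries on the log2 scale. The 3 most similar genes were Nudt7, a peroxisomal coenzyme A diphosphatase (Pearson r = 0.971, Spearman rho = 0.855), Atrn, which encodes attractin (0.954 and 0.952), and Ythdc2, an RNA helicase (0.953 and 0.903). These were chosen as the highest of all tested genes outside the lists, so no p is given. Without KO 1 and KO 4, the libraries farthest from the median of Trib3, r was 0.953, 0.909 and 0.900. With genotype means removed it was 0.812, 0.771 and 0.827. Each rose in KO, with log2 differences of 0.46, 0.53 and 0.40.

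**Figure D3:**
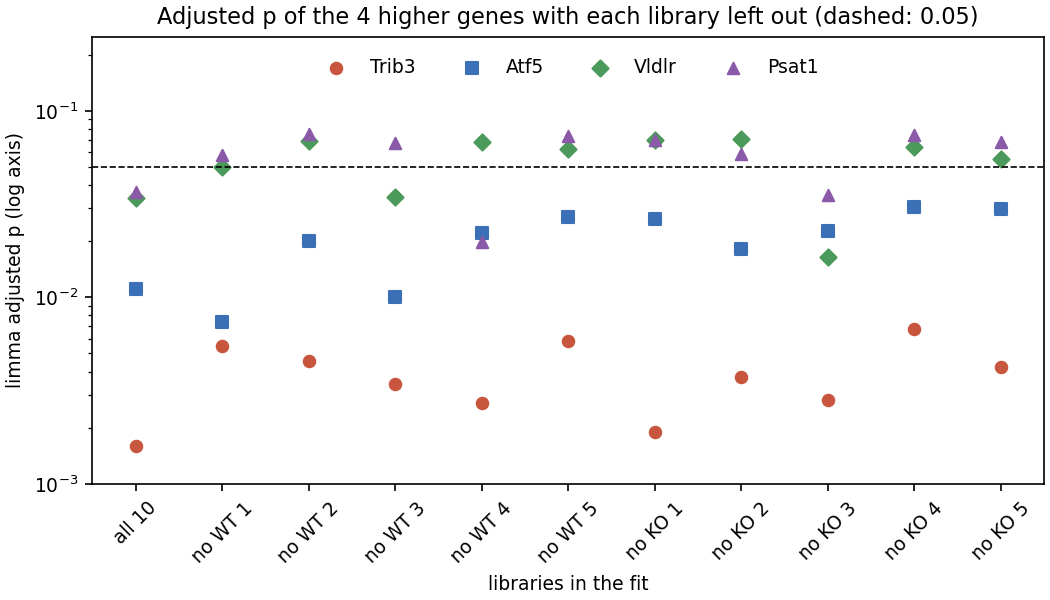
Limma adjusted p (log axis) of the 4 genes that rose, with all 10 libraries and with each left out in turn; the dashed line marks 0.05. Trib3 and Atf5 stay below the line throughout, while Vldlr crosses it in 7 of the 10 fits and Psat1 in 8.

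Genes with related roles were counted in lists. Over 5 lists of other genes, 57 of 66 were tested. Of the 57, 6 were higher (10.5%), 2 lower (3.51%) and 49 not called, with a median of 0.05. The transporter, amino acid enzyme and effector lists were meant to hold genes that ATF4 induces, which was not checked gene by gene here. The synthetase list and the serine, glycine and folate list were drawn up by role, whether or not ATF4 induces each gene. The 6 include the 4 higher genes of the synthetase list. For every list count here and below, the shares among all tested genes were 3.98% higher and 4.56% lower. Of the 21 cytosolic aminoacyl-tRNA synthetase genes (with Xpot, which exports tRNA from the nucleus), 4 were higher, 1 was lower and 16 did not pass, with a median of 0.14. Iars, the isoleucyl enzyme, was at 12.74, 10.16, 9.83, 12.33 and 11.74 FPKM in WT and 16.15, 15.68, 15.39, 17.38 and 14.51 FPKM in KO, all KO libraries above all WT libraries. Its log2 difference was 0.47 (SE 0.08, limma adjusted p = 0.00712). Gars, the glycyl enzyme, rose from 23.2 ± 1.04 to 28.8 ± 1.58 FPKM, also without overlap (0.30, limma adjusted p = 0.00748). Both calls held whichever library was left out. Sars (0.33) and Xpot (0.20) rose as well, but Sars lost the call without WT 2, WT 3, WT 4, WT 5, KO 1, KO 4 or KO 5 and Xpot without WT 1, WT 3, WT 4, WT 5, KO 1, KO 2, KO 4 or KO 5 (highest adjusted p 0.0694 and 0.0814). Qars, the glutaminyl enzyme, fell (-0.29, limma adjusted p = 0.0466) and is named here after its values were seen, as is Mars, at 0.22 (adjusted p = 0.0579).

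None of the amino acid transporters on the list was called by limma. Of 11, 8 were tested, 1 had an unadjusted p under 0.05 (Slc38a7, -0.18, adjusted p = 0.133), and 7 of the 8 differences were negative (median -0.13). Slc7a11, a cystine carrier subunit, and the cationic carriers Slc7a1 and Slc7a3 were under the filter. Of 8 other genes of serine, glycine and folate metabolism, 5 were tested. Phgdh, the enzyme before Psat1 in serine synthesis, was under the filter, at 0.22 ± 0.209 in WT and 0.148 ± 0.103 FPKM in KO. Psph, the enzyme after Psat1, was at 0.15 on the log2 scale without passing (limma adjusted p = 0.452). Shmt1, which interconverts serine and glycine in the cytosol, was the single called gene of the 5 (median -0.08). It fell from 87.5 ± 8.9 to 71.2 ± 5.83 FPKM (-0.29, limma adjusted p = 0.0417), without overlap, and lost the call without WT 1, WT 2, WT 5, KO 2, KO 3, KO 4 or KO 5 (highest adjusted p 0.09).

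Of 8 tested amino acid enzymes on the next list, Gpt2, a mitochondrial alanine transaminase, rose from 146.5 ± 10.6 to 179.8 ± 20.0 FPKM (0.29, limma adjusted p = 0.0441) and 7 did not pass (median 0.17). Gpt2 lost the call without any one of 9 libraries, all but KO 3 (highest adjusted p 0.102). Of 15 tested secreted or stress effectors, Eif4ebp1, the translation repressor 4E-BP1, rose from 40.4 ± 5.65 to 50.5 ± 3.18 FPKM (0.33, limma adjusted p = 0.045) and 14 did not pass (median 0.07). It lost the call without any one of 8 libraries, all but WT 2 and WT 3 (highest adjusted p 0.0978). Fgf21 and Gdf15, the circulating hormones of mitochondrial stress, are named after their values were seen. Fgf21 was at 22.01, 10.13, 12.91, 67.62 and 58.96 FPKM in WT and 22.69, 28.91, 55.77, 88.37 and 34.06 FPKM in KO. Gdf15 was at 4.98, 0.93, 1.87, 10.61 and 11.52 FPKM in WT and 1.60, 1.79, 5.77, 5.60 and 3.42 FPKM in KO. Both were high in WT 4 and WT 5 and low in WT 2 and WT 3, and neither passed (limma adjusted p = 0.55 and 0.773).

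Upstream of ATF4, 3 of 17 genes of eIF2 and its regulators rose and none fell (median 0.04; 1 lower at an unadjusted p under 0.05, Dnajc3). Eif2s2, the beta subunit of eIF2, was at 29.37, 25.35, 30.81, 29.69 and 27.56 FPKM in WT and 36.18, 35.68, 33.25, 36.71 and 33.67 FPKM in KO, without overlap (0.30, limma adjusted p = 0.0144). Eif2b3, a subunit of the exchange factor that recharges eIF2, rose from 5.70 ± 0.609 to 7.47 ± 0.398 FPKM (0.37, limma adjusted p = 0.0176), again without overlap. Both calls held whichever library was left out. With the replicate number as a block, Eif2b3 lost the call (limma adjusted p = 0.0531) and Eif2s2 kept it (limma adjusted p = 0.048). Eif2s1, the alpha subunit that the stress kinases phosphorylate, rose by 0.24 (limma adjusted p = 0.0417) and lost the call without any one of 8 libraries, all but WT 1 and KO 1 (highest adjusted p 0.0914). None of the 4 eIF2 kinase genes was called by limma, and 0 had an unadjusted p under 0.05.

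Of 12 mitochondrial stress and chaperone genes, 2 rose and none fell (median 0.10; 2 lower at an unadjusted p under 0.05, Lonp1 and Trap1). Hspa9, the mitochondrial heat shock protein mortalin, rose from 185.2 ± 9.56 to 220.3 ± 8.78 FPKM (0.25, limma adjusted p = 0.0131), without overlap and whichever library was left out. Afg3l2, a protease subunit of the inner membrane, rose by 0.21 (limma adjusted p = 0.0267) and lost the call without WT 1, WT 2, KO 1, KO 2, KO 4 or KO 5 (highest adjusted p 0.0639). None of 19 tested bZIP genes that can pair with or resemble ATF4 was called by limma, and 2 had an unadjusted p under 0.05, Nfe2l1 (-0.22) and Junb (-0.53). Without WT 3, Nfe2l1 passed (-0.29, limma adjusted p = 0.0482).

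Endoplasmic reticulum chaperones and targets of the IRE1 and ATF6 branches had a negative median, -0.29 over 23 tested genes, 21 of them below 0. Of these, 2 fell, Edem1 (-0.38, limma adjusted p = 0.00733) and Syvn1 (-0.47, limma adjusted p = 0.0112), both of the degradation of misfolded protein, and their calls held whichever library was left out. Derl1 of the same process rose (0.23, limma adjusted p = 0.0444), but lost the call without any one of 8 libraries, all but WT 4 and KO 1 (highest adjusted p 0.104). The other 20 did not pass.

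**Figure D4:**
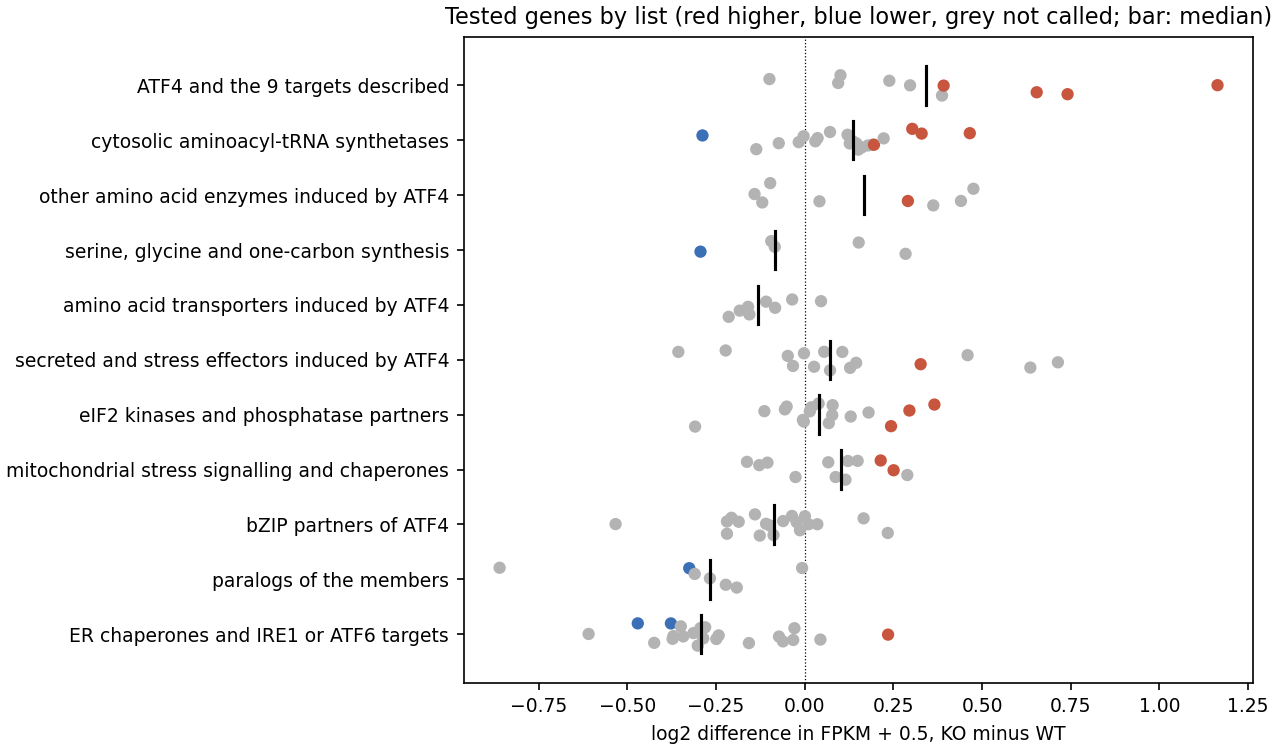
Log2 difference, KO minus WT, of each tested gene by list (points; red called higher, blue called lower, grey not called; vertical scatter is only for legibility) with the list median (bar). The 10 genes described here have a median of 0.34, and the endoplasmic reticulum list one of -0.29.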

How the data were processed

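Per the labels, poly-A RNA of mouse liver in 10 libraries underwent paired-end sequencing. The authors deposited FPKM per gene and library; the submitters' processing notes list STAR, RSEM, R 4.0.2, DESeq, DESeq2 and mm10 but assign them no steps. The annotation and strand setting are not given in the sources used here. Since FPKM divides by the library total, more RNA from abundant genes lowers all other values.

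No rescaling was applied before taking log2(FPKM + 0.5). The 12247 genes whose mean reached 0.5 FPKM were fitted in R 4.3.3 by limma 3.58.1, with genotype alone in the model, a mean-variance trend, robust moderation and two-sided tests. A gene was called where its p, adjusted by Benjamini and Hochberg's method over all tested genes, was under 0.05. The KO against WT fit was tested on simulated data of 12247 genes, where recovery was 56.7% at a log2 change of 0.5, 90.4% at 1 and 100% at 2, and 4.57% of calls were false. The absolute depth is unknown. Simulated low values were used to test the relative depth estimate.

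The 10 genes and all lists were chosen with earlier results of these data known. Named list genes were the called ones (at most 4 per list, by p), or the 1 of smallest p where none was called. Other list genes in the text fall outside this rule and were named with their values known, whether or not that is said beside them. Some single-gene results that belong to these lists are not reported here. Alternatives were other pseudocounts, filters and scalings, a non-robust fit, each library left out, library weights and a block on replicate number. Gene positions are from GENCODE M21 (GRCm38, the assembly of mm10) and promoters from RefSeq. Python 3.11.15 and matplotlib 3.10.9 made the figures.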

Additional observations from a re-analysis of the deposited data

Results flagged for a closer look

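Each named gene was examined for a library that stood far from the other 4 of its genotype, in 74 groups in all. Atf3 in WT 3 was the single such case: it stood at 4.40 FPKM, against 0.43 to 1.39 FPKM in the other WT libraries. Chance alone gives about 1 in 20 groups, or 3.7 of 74.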

How the results depend on the processing

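Of the 10 genes, 4 were called with all libraries, and 4 with either other pseudocount, each of the 3 scalings, a non-robust fit or library weights. The count was 2 with no filter and 2 with a filter at a mean of 5 FPKM, where Vldlr and Psat1 were not tested. With no filter, where 21111 genes were tested, Vldlr and Psat1 had adjusted p = 0.0671 and 0.0672. With 1 library left out the count ran from 2 to 4. Trib3 and Atf5 were called in every fit run. Over all tested genes, the 1046 called became 664 with no filter and from 574 to 995 with 1 library left out. Of the calls, 46.7% were higher in KO; quantile normalization made this 56.1%, median-of-ratios scaling 53.7% and upper-quartile scaling 50.9%. Atf3 and Chac1, not called in any fit, changed sign when 1 library was left out, with ranges from -0.141 to 0.458 (Atf3, also -0.00705 and -0.0677) and from -0.0647 to 0.225 (Chac1). Of 23 called list genes, 8 kept the call whichever library was left out. With no filter 11 of the 23 lost it (Shmt1, Gpt2, Sars, Eif4ebp1, Eif2s1, Derl1, Lrp1, Ehhadh, Srxn1, Nqo1 and Gclc), with quantile normalization 4 (Shmt1, Acadm, Nqo1 and Gclc) and with library weights 1 (Eif2s1).

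Correlations across genes between same-numbered WT and KO libraries ran from -0.207 to 0.208, against -0.179 to 0.25 for other pairs. Of 10 libraries, 4 correlated best with their own number. The 5 same-numbered pairs are too few to tell whether the numbers pair the libraries. With the replicate number as a block, 551 genes were called, and 3 of the 10 (Vldlr had adjusted p = 0.083). Of the 23 list genes, 13 lost the call there (Shmt1, Gpt2, Xpot, Eif2b3, Eif2s1, Afg3l2, Derl1, Lrp1, Ehhadh, Acadm, Srxn1, Nqo1 and Gclc).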

Other observations

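Trib3, Vldlr and Sesn2 are also targets of other factors, whose lists were counted. Of 20 tested targets of PPAR-alpha, the fatty acid sensor that also induces Trib3 and Vldlr, 2 rose, 1 fell and 17 did not pass (median -0.01). Ehhadh, of peroxisomal oxidation, rose by 0.65, without overlap. Acadm, of mitochondrial oxidation, fell by 0.24, also without overlap. Ehhadh lost the call without KO 3, KO 4 or KO 5 and Acadm without WT 1, WT 4, WT 5, KO 1, KO 2, KO 4 or KO 5 (highest adjusted p 0.0595 and 0.0684). Cpt1a, Pdk4 and Cyp4a10 were among those that did not pass.

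Of 11 tested NRF2 targets, 3 fell, 1 rose and 7 did not pass (median -0.18). Gclm and Gclc, the subunits of the enzyme that begins glutathione synthesis, fell by 0.37 and 0.37 and Nqo1 by 0.48, while Srxn1 rose by 0.35. Gclm kept its call whichever library was left out. Gclc lost it without any one of 8 libraries, all but WT 2 and KO 1, Nqo1 without any one of 9, all but WT 4, and Srxn1 without any one of 8, all but WT 5 and KO 1 (highest adjusted p 0.111, 0.0978 and 0.0728). With all libraries the limma adjusted p was 0.0496 for Gclc and 0.0455 for Nqo1. Neither was called with no filter or with quantile normalization, nor was Gclc with median-of-ratios scaling or a non-robust fit, nor Nqo1 with upper-quartile scaling. Of 10 tested p53 targets, which as a class include Sesn2, none was called by limma and 3 had an unadjusted p under 0.05, Btg2 (-0.91), Trp53inp1 (0.72) and Sesn1 (-0.31).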
